A study of Mus musculus with 69 samples.

Results

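The genes described here encode the subunits of the oxidative phosphorylation complexes, and they were taken from the count table by symbol alone. The symbols that start with mt-Nd, mt-Co, mt-Cytb or mt-Atp gave the 13 protein-coding genes of the mitochondrial genome. The Nduf, Uqcr and Atp5 symbols and the Cox symbols with an isoform letter gave 78 nuclear genes, after symbols that mark pseudogenes were left out. Together they are 91 of the 55367 rows of the table, and the genes of each genome are reported apart because their transcripts are made, processed and counted differently.

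Oxidative phosphorylation takes place in the inner mitochondrial membrane. Complex I takes electrons from NADH, complex III passes them on to cytochrome c, complex IV hands them to oxygen, and complex V uses the proton gradient that results to make ATP. The mitochondrial genome encodes a small set of core subunits of these complexes, which are transcribed as long polycistronic RNAs, whereas all other subunits are encoded in the nucleus and imported. Pluripotent stem cells are known for a strongly glycolytic metabolism, and some complex IV subunits exist as isoforms that are typical of heart and muscle or of the testis.

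The libraries came from E14Tg2A mouse embryonic stem (mES) cells and from mosaic gastruloids made of them, which are aggregates that mimic events of gastrulation. There were 3 clones. WT-mCherry carried an H2B-mCherry transgene under the EF1α promoter and WT-emiRFP an H2B-emiRFP670 transgene under the CAG promoter. The p53KO-emiRFP cells were a single daughter clone of WT-emiRFP that additionally had an insertion of 1 base in exon 4 of Trp53, which shifts its reading frame, so that a difference of this clone from its parent cannot be told apart from a difference between clones. Each clone was sequenced as a pluripotent culture in serum and LIF at 0 h. Gastruloids were seeded with 150 WT-mCherry and 150 WT-emiRFP cells (WT + WT) or with 150 WT-mCherry and 25 p53KO-emiRFP cells (WT + p53KO). The mixes thus differ in the number of cells seeded as well as in clone, and these cannot be told apart. Cells were separated by fluorophore with FACS at 48, 72, 96, 120 and 144 h. The protocol gives a pulse of a Wnt pathway agonist from 48 to 72 h, so cells sorted at 48 h had not been through it. Each population at each time had 3 replicates, for 69 libraries in all. Because each library is a bulk sample, fewer cells of a type and less RNA per cell cannot be told apart.

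Total counts were 26722541 to 72981570 per library (median 53098728). Normalized counts are counts divided by a size factor set over all 69 libraries. A gene is said to have changed where edgeR's quasi-likelihood test gave an adjusted p under 0.05 over all genes tested, and differences are log2 fold changes, given with the standard error (SE) where genes are described singly. Trp53 RNA had group means of 1621 to 2484 normalized counts in the p53KO-emiRFP populations and of 14610 to 25500 in the WT populations. The summed level of 7 naive pluripotency genes stood apart at 144 h, with 13140 to 20020 normalized counts in p53KO-emiRFP, 78910 to 92110 in WT-emiRFP and 56440 to 70990 in the WT-mCherry libraries. At 96, 120 and 144 h all 7 of these genes were lower in the mutant cells than in their parent clone.

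Reads of some mitochondrial genes have a second place in the genome. The authors kept uniquely mapped reads only, and a stretch of chromosome 1 between bases 24611535 and 24616197 of GRCm38 holds annotated nuclear copies of several mitochondrial genes on its minus strand. The first 150 bases of mt-Co2, the second subunit of complex IV, are shown with those of its copy Gm28661 as an example of a gene whose reads have an identical second place. The stretch of mt-Co1 that starts the alignment with its copy Gm29216 is shown as an example of a partial copy, with the 6 bases that differ in capitals in both.
mt-Co2, chrM:7013-7162 (plus strand): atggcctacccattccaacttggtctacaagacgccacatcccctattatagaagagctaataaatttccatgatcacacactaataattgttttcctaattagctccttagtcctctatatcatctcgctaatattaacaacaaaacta
Gm28661, chr1:24615416-24615565 (minus strand): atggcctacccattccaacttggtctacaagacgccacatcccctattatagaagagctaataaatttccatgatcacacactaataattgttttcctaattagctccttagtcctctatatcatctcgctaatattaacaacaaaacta
mt-Co1, chrM:6381-6530 (plus strand): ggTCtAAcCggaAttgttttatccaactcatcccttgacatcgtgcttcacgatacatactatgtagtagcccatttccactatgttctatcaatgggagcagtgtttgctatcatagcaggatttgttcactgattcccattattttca
Gm29216, chr1:24616048-24616197 (minus strand): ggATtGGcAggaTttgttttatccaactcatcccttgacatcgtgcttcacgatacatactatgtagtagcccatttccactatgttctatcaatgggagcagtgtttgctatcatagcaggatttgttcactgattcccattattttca

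The alignment of mt-Co2 with Gm28661 covered 681 bases with 0 mismatches. The copies of mt-Atp6, mt-Co3 and mt-Nd4l also had 0 mismatches over 678, 783 and 294 bases, and that of mt-Nd3 had 1 mismatch over 345 bases. The copy of mt-Nd4 covered 63.6% of that gene and the copy of mt-Co1 31.8%. In each of mt-Co2, mt-Co3, mt-Atp6, mt-Nd3 and mt-Nd4l, between 97.6% and 99.9% of all 100-base windows also occurred in a transcript of another annotated gene.

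The genes with copies over their whole length had few counts. The mean count per library was 155.9 for mt-Co3, 148.1 for mt-Co2, 97.2 for mt-Atp6, 15.7 for mt-Nd3 and 7.86 for mt-Nd4l. The short gene mt-Atp8 averaged 4.45 counts although none of its 100-base windows occurred elsewhere, and the reason was not tested. These 6 genes hold almost none of the mitochondrial signal and their values are uncertain. The other 7 genes had reads of their own: mt-Co1 took 44.1% of all counts of the 13 genes, mt-Cytb 16.8%, mt-Nd1 15.7%, mt-Nd2 8.86%, mt-Nd5 8.12%, mt-Nd4 4.97% and mt-Nd6 1.40%. Counts of mitochondrial genes are therefore described below mainly through these 7.

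**Figure D1:**
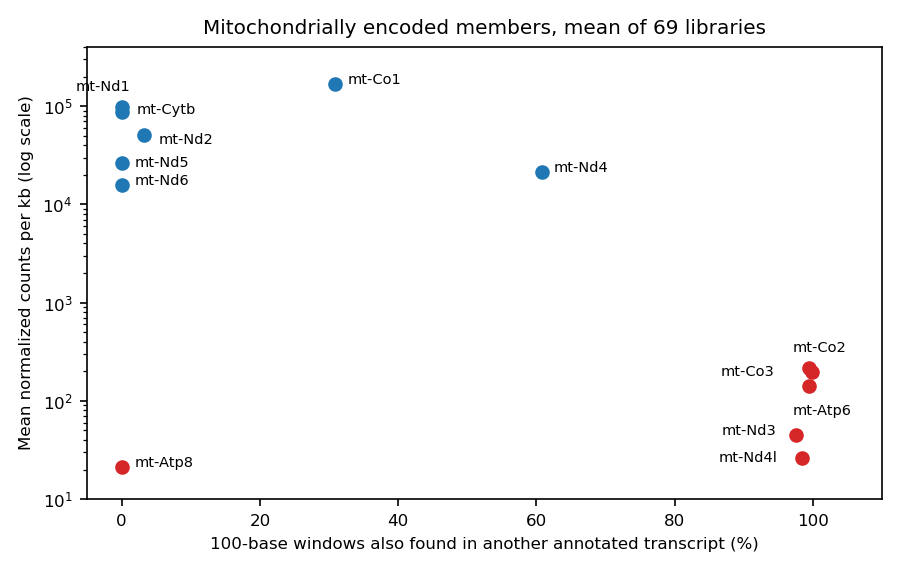
Mean normalized counts per kb of transcript over 69 libraries (log axis) against the percentage of 100-base windows that also occur in another annotated transcript, with 1 point for each of the 13 mitochondrial genes. The 5 genes with 97.6% or more of their windows shared, and mt-Atp8 with none shared, lie below all other genes (red), whereas mt-Nd4 with 60.8% shared lies at 21230.

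Per kb of transcript, the mitochondrial genes led the list of subunits. Over all libraries mt-Co1, the catalytic subunit of complex IV, averaged 168100 normalized counts per kb, mt-Nd1 of complex I 97370 and mt-Cytb, the cytochrome b of complex III, 86540. The highest nuclear subunit was Atp5b, the catalytic beta subunit of ATP synthase, with 57540 per kb, above mt-Nd2 with 50470, mt-Nd5 with 26260, mt-Nd4 with 21230 and mt-Nd6 with 15890. It was followed among nuclear genes by the alpha subunit Atp5a1 (23320 per kb), Atp5g3 (22560), Cox7c (19220) and Cox8a (16470). The median level per kb of the nuclear subunits was 3008 for the 35 of complex I, 6925 for the 8 of complex III, 7239 for the 18 of complex IV, with Ndufa4 counted there, and 9940 for the 17 of complex V. The least expressed nuclear members were isoforms of complex IV, with 27.8 per kb for Cox7b2, 26.9 for Cox6a2, 26.5 for Cox6c2, 26.2 for Cox8c and 4.99 for Cox8b. Ndufb2 stood at 36.0 per kb, and 7.94% of its exon bases overlap other annotated genes, so its count is uncertain. Atp5o overlaps a second annotated gene over its whole length, and 39% of Ndufb6 is overlapped on the opposite strand. Nuclear members share sequence as well: 86.4% of the 100-base windows of Atp5g2, 68.99% of those of Atp5l and 44.4% of those of Cox7c also occurred in a transcript of another annotated gene, against at most 34.9% for any other nuclear member (Cox6c2, then Ndufb4 with 33.4%). Since only uniquely mapped reads were counted, the levels and differences of these genes are uncertain.

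The 13 mitochondrial genes together took 0.615 to 1.72% of a library's counts and the 78 nuclear genes 0.82 to 1.31%. In pluripotent cultures the mitochondrial share was 1.27 ± 0.281% (SD, n = 3) in p53KO-emiRFP, 1.40 ± 0.209% in WT-emiRFP and 1.51 ± 0.187% in WT-mCherry cells. At 48 h it was 0.974 ± 0.122% in p53KO-emiRFP cells, 1.32 ± 0.0785% in WT-emiRFP, 1.26 ± 0.0495% in WT-mCherry beside p53KO and 1.25 ± 0.0446% in WT-mCherry beside WT cells. The p53KO-emiRFP libraries held 0.836 to 1.07% at that time and did not overlap the WT-emiRFP libraries at 1.25 to 1.40%. The mean shares were 0.857 to 1.16% at 72 h, 1.13 to 1.3% at 96 h, 0.906 to 1.18% at 120 h and 0.855 to 1.02% at 144 h. From 72 h on the p53KO-emiRFP libraries overlapped the WT-emiRFP libraries.

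The mitochondrial values varied more between replicates than the nuclear ones. The median coefficient of variation among the 3 replicates of a group was 17.2% for the 7 mitochondrial genes with reads of their own and 6.88% for the 78 nuclear genes. The 7 mitochondrial genes also moved together: the median correlation of their deviations from group means was 0.899 over 69 libraries, against 0.646 for 73 nuclear members. These correlations describe genes that share a library and its size factor.

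**Figure D2:**
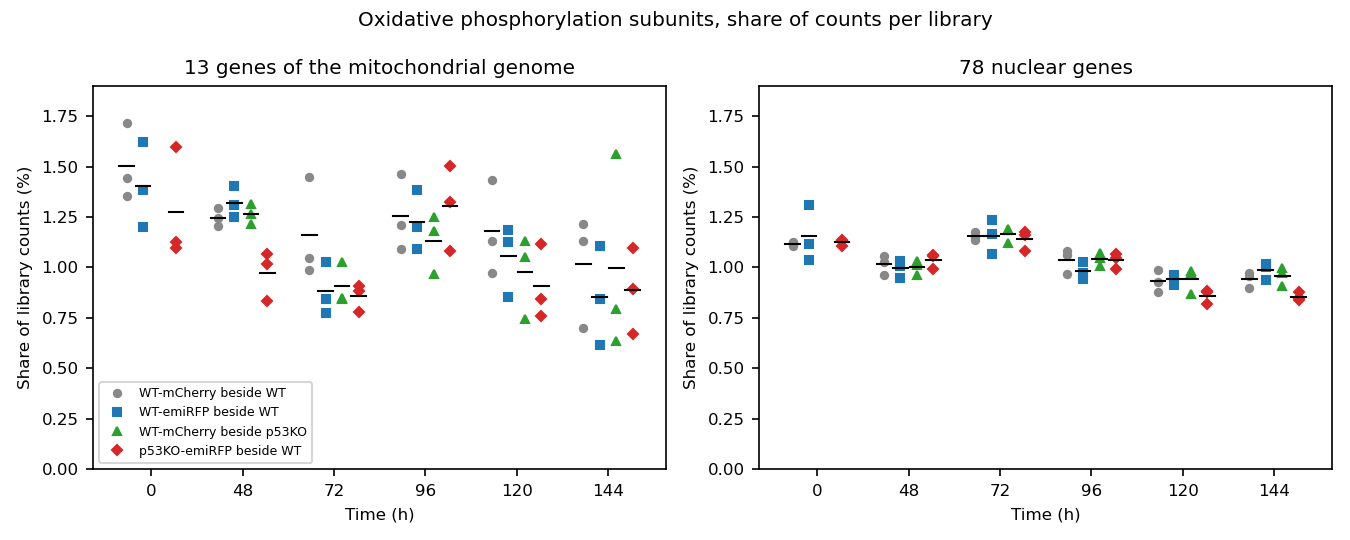
Share of each library's counts (%, linear axis) that fell on the 13 mitochondrial genes and on the 78 nuclear genes, by time (h) for the 4 sorted populations and the cultures at 0 h, with a point per library and a black line at the mean of 3. The p53KO-emiRFP libraries at 48 h (0.836 to 1.07%) lie below the other 48 h libraries in the mitochondrial panel, and the spread is widest at 144 h.

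The WT cells gave the course of these genes through gastruloid development without a mutant genotype. Consecutive times were compared with the 3 WT populations averaged, 9 libraries at each time and 6 at 0 h. Libraries of different populations with the same replicate number were taken as independent in these tests. Between 48 and 72 h the mitochondrial RNAs with reads of their own fell while 46 of 77 nuclear subunits rose, and between 72 and 96 h 2 mitochondrial genes rose while 55 of 77 nuclear subunits fell. From 72 to 120 h most nuclear subunits fell. The marker lists moved over these intervals too, and their part in the values of the subunits was not tested. All 7 naive pluripotency genes fell from 0 to 48 h (median −4.05) and rose from 48 to 72 h (median +1.03) and from 96 to 120 h (median +0.94).

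From 0 to 48 h, 39 of 77 nuclear subunits fell (50.6%, against 37.2% of 21121 genes tested) and 3 rose (3.90%, against 33.0%), with a median log2 difference of −0.16. The accessory complex I subunit Ndufb4 went from 1283 to 1542 normalized counts (median 1358) at 0 h to 712.2 to 978.3 (median 850.6) at 48 h, a fall of all libraries below the earlier range (log2 −0.70, SE 0.068, adjusted p = 8.87e-14). The complex I subunits Ndufa12 (log2 +0.26, SE 0.070) and Ndufs8 (log2 +0.16, SE 0.055) rose. Of the 13 mitochondrial genes, mt-Nd2 rose (log2 +0.43, SE 0.158, adjusted p = 0.0138) and 5 fell, among them mt-Co1 (log2 −0.38) and mt-Nd6 (log2 −0.44). Without the libraries of replicate 1, 2 of the 13 passed the test in place of 6.

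From 48 to 72 h, all 7 mitochondrial genes with reads of their own fell, and so did 2 of the other 6. Their median log2 difference was −0.46, and within the 3 replicate numbers it was −0.55, −0.45 and −0.38. mt-Nd1 went from 127100 to 138700 normalized counts (median 131800) to 58380 to 121500 (median 87170), with no overlap between the times (log2 −0.61, adjusted p = 1.31e-04). mt-Cytb went from 114700 to 123400 (median 121100) to 75900 to 131700 (median 93700), with an overlap (log2 −0.39, adjusted p = 0.00453). The other falls were −0.55 in mt-Nd2, −0.47 in mt-Co1, −0.46 in mt-Nd4, −0.36 in mt-Nd5 and −0.31 in mt-Nd6. Without replicate 1, 3 of the 13 mitochondrial genes passed the test in place of 9. Stress response genes of the kind that dissociation induces moved with this interval: 6 of 9 rose and 0 fell (median +1.26), and their sum was 5225 to 7498 normalized counts in the WT libraries at 48 h and 7511 to 12310 at 72 h. Their part in the fall of the mitochondrial RNAs was not tested. The Wnt agonist was given in this interval, so its part in the changes of both genomes cannot be told apart from that of time.

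In the same interval 46 of 77 nuclear subunits rose (59.7%, against 32.8% of genes tested) and 5 fell (6.49%, against 34.0%). The median log2 difference of the nuclear subunits was +0.16, and within the replicate numbers it was +0.14, +0.19 and +0.19. The rises included 24 of 35 subunits of complex I, 5 of 8 of complex III, 8 of 17 of complex IV and 9 of 17 of complex V. Cox7a2l, which helps to join complexes III and IV into supercomplexes, went from 6565 to 7541 normalized counts (median 7176) to 9080 to 11060 (median 10190), so that all 9 libraries lay above the earlier ones (log2 +0.52, SE 0.036, adjusted p = 9.55e-19). Cox6b2, known as the testis isoform of a complex IV subunit, rose by 0.84 (SE 0.078). The 5 falls were in the isoform genes Cox8c (log2 −2.02), Cox7b2 (−1.58) and Cox6a2 (−1.11), which have few counts, and in Ndufa7 (−0.17) and Cox6c (−0.14). Cox7b2 went from 18.5 to 37.6 normalized counts (median 26.9) to 5.90 to 14.1 (median 9.12), with no overlap. The mitochondrial ribosomal proteins, which are nuclear genes for the machinery that translates the mitochondrial RNAs, did not share the direction of the nuclear subunits: 15 of 77 rose and 35 fell, with a median of −0.08.

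From 72 to 96 h, 55 of 77 nuclear subunits fell (71.4%, against 28.2% of genes tested) and 2 rose (2.60%, against 30.5%). The falls took in 16 of 17 subunits of complex V, 7 of 8 of complex III, 13 of 17 of complex IV and 19 of 35 of complex I, and 50 of 77 mitochondrial ribosomal proteins fell as well. Atp5l, subunit g of ATP synthase, went from 1338 to 2025 normalized counts (median 1572) to 1023 to 1353 (median 1141; log2 −0.47, SE 0.079, adjusted p = 9.06e-07). Cox7a2 rose (log2 +0.37, SE 0.047), as did Ndufb2 (log2 +0.18, SE 0.058). Of the mitochondrial genes, mt-Co1 (log2 +0.33, adjusted p = 0.0183) and mt-Nd4 (log2 +0.33, adjusted p = 0.0329) rose and mt-Co3 fell. The median of the 7 genes was +0.26, and a fit that took the replicate number as a block called 6 of 13 higher (46.2%, against 31.9% of all genes with the block) and 1 lower (7.69%, against 29.7%). Leaving out replicate 1, 2 or 3 left 0, 5 and 1 of the 13 past the test in place of 3. DESeq2 called 4, and 7 had an unadjusted p under 0.05. Of the 9 stress response genes, 5 fell and 0 rose (median −0.76), to a sum of 6810 to 8895 normalized counts at 96 h, and their part in these values was not tested.

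From 96 to 120 h, 52 of 77 nuclear subunits fell (67.5%, against 28.0% of genes tested) and 3 rose (3.90%, against 28.9%), with a median of −0.18. Atp5l fell again, to 622.2 to 932.2 normalized counts with a median of 782.0 (log2 −0.62, SE 0.081, adjusted p = 2.32e-09), below every library at 96 h. Cox7a2 fell by 0.75 (SE 0.047, adjusted p = 2.04e-20), from 8919 to 10520 (median 10040) to 5317 to 6419 (median 5928) normalized counts, again with no overlap. Of the mitochondrial genes only mt-Nd2 fell (log2 −0.34, adjusted p = 0.0325), and with the replicate block 5 of the 13 were lower (38.5%, against 30.6% of all genes) and 0 higher (against 30.4%). Without replicate 1 or without replicate 2, 0 of the 13 passed the test, where 4 of 13 had an unadjusted p under 0.05 in the fit of all libraries. Of the 9 stress response genes 6 rose and 0 fell (median +0.61). Their sum was 15780 in WT-emiRFP replicate 2 and 15730 in replicate 2 of WT-mCherry beside WT cells, and 6682 to 10180 normalized counts in the other 7 WT libraries at 120 h. Without replicate 2 41 nuclear subunits passed the test in place of 55. Of the 11 heart and muscle markers 5 rose (45.5%) and 3 fell (27.3%).

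From 120 to 144 h, 12 of 77 nuclear subunits rose (15.6%, against 28.7% of genes tested) and 19 fell (24.7%, against 26.8%), which is near or below the share of all genes. Ndufa5 (log2 −0.27) and Ndufb2 (log2 −0.39) fell. None of the 13 mitochondrial genes passed the edgeR test, 1 had an unadjusted p under 0.05 and DESeq2 called 0. The replicates went apart, with medians of the 7 genes of −0.43, −0.47 and +0.19. Without replicate 3, 10 of the 13 passed the test, and with the replicate block 3 were lower (23.1%, against 28.8% of all genes) and 0 higher (against 30.2%). In p53KO-emiRFP cells the median of the mitochondrial genes over the same 5 intervals was −0.36, −0.15, +0.50, −0.48 and +0.01, and that of the nuclear subunits −0.10, +0.11, −0.17, −0.25 and −0.05.

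**Figure D3:**
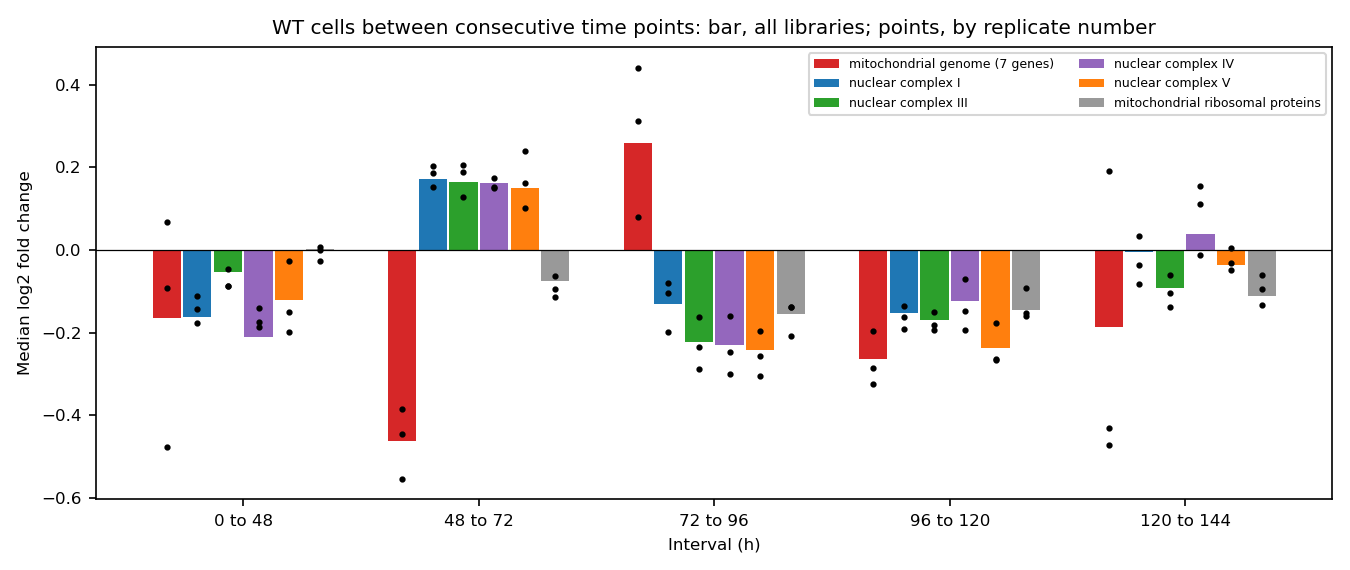
Median log2 fold change of the 7 mitochondrial genes with reads of their own, of the nuclear subunits of complexes I, III, IV and V and of the mitochondrial ribosomal proteins over each interval (h) in WT cells, with bars for the fit of all libraries and points for the 3 replicate numbers. From 48 to 72 h the mitochondrial bar lies at −0.46 and those of the 4 complexes at +0.15 to +0.17, and from 72 to 96 h their signs are exchanged.

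The comparison of p53KO-emiRFP with WT-emiRFP cells at the same time asked how these genes differed between mutant cells and their parent clone. The mitochondrial RNAs were lower in p53KO-emiRFP cells at 48 h. Up to 96 h at most 8 nuclear subunits passed the test at any time, isoforms and other subunits among them, whereas with the replicate block 28 were higher at 48 h and 31 at 96 h (36.8% and 41.3%, against 22.3% and 17.4% of all genes). At 144 h 29 of 76 were lower (38.2%, against 32.2% of all genes tested), and 12 of these belonged to complex IV.

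At 48 h, 9 of 12 mitochondrial genes tested were lower in the p53KO-emiRFP cells (75.0%, against 11.7% of 17662 genes tested) and 0 were higher (against 10.3%). All 7 genes with reads of their own were among them, with log2 differences of −0.33 to −0.49. mt-Co1 had 251500, 197800 and 243300 normalized counts in the p53KO-emiRFP libraries and 289000, 324800 and 308100 in the WT-emiRFP libraries (log2 −0.41, SE 0.075, adjusted p = 9.28e-04). Every WT-mCherry library lay above the mutant range as well, at 275900, 303500 and 283200 beside p53KO and 283400, 299900 and 306700 beside WT cells. mt-Cytb had 101400, 72410 and 94100 in p53KO-emiRFP against 120500, 122300 and 121100 in WT-emiRFP cells (log2 −0.44, SE 0.084, adjusted p = 0.00143), and it too did not overlap.

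Among the subunits of complex I, mt-Nd2 differed by −0.49 (SE 0.064, adjusted p = 4.70e-05), mt-Nd4 by −0.48, mt-Nd5 by −0.44, mt-Nd6 by −0.36 and mt-Nd1 by −0.33 (SE 0.062, adjusted p = 0.00115). The fall of mt-Co2 (log2 −0.77, adjusted p = 0.00447) and mt-Co3 (log2 −0.56, adjusted p = 0.00911) rests on the few counts of genes with nuclear copies. All 3 same-numbered pairs went the same way, with medians of the 7 genes of −0.22, −0.72 and −0.34, and replicate 2 was the lowest. Without replicate 2, 5 of the mitochondrial genes passed the test, and 8 did so without replicate 1 or replicate 3. Of the ribosomal RNAs of the same genome, mt-Rnr2 was lower (log2 −0.55, adjusted p = 0.0150) and mt-Rnr1 stood at −0.04. The list of 22 nuclear genes for mitochondrial DNA upkeep and RNA synthesis had 1 member higher (4.55%) and 0 lower at 48 h. Of the 9 stress response genes 0 were higher and 1 was lower, and their sums overlapped, at 6140 to 7283 in p53KO-emiRFP and 5662 to 7498 normalized counts in WT-emiRFP libraries. The sums of a list of gastruloid markers did not overlap, at 623.1 to 676.6 in p53KO-emiRFP and 446.4 to 479 in WT-emiRFP libraries. The part of these markers in the mitochondrial differences was not tested.

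At the other times the mitochondrial genes gave no difference that passed the edgeR test. Of 11 or 12 tested, 0 changed at 0 h (median −0.21), 72 h (median −0.01), 96 h (median +0.05), 120 h (median −0.21) and 144 h (median +0.11). At most 1 of them had an unadjusted p under 0.05 at any of these times, and DESeq2 called 0. Among all genes tested at 0 h, 1.97% went up and 4.16% went down past the threshold. The corresponding shares were 13.4% and 15.7% (72 h), 9.45% and 13.8% (96 h), 27.3% and 23.7% (120 h), 33.2% and 32.2% (144 h). The count of 0 thus stands beside few calls among all genes at 0 h and many at 120 and 144 h. With the replicate block mt-Cytb was lower at 0 h (log2 −0.38, adjusted p = 0.0095, where the fit without the block gave 0.237) and mt-Nd2 was higher at 144 h. Without replicate 1, 2 of the genes passed the test at 0 h. For scale, the SD of the mitochondrial share at 144 h was 0.214 percentage points in p53KO-emiRFP and 0.245 in WT-emiRFP cells, at means of 0.888 and 0.855%.

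Few nuclear subunits passed the test at the early times. At 0 h 1 of 76 was higher (1.32%, against 1.97% of 18395 genes tested) and 1 lower (1.32%, against 4.16%). At 48 h 1 was higher (against 10.3%) and 1 lower (against 11.7%), with a median of +0.07. The higher gene at 48 h was Cox7c, a small complex IV subunit, with 13290, 13350 and 11680 against 11710, 11110 and 10280 normalized counts (log2 +0.21, SE 0.072, adjusted p = 0.0479), a call that TMM scaling lost (adjusted p = 0.0787). With the replicate block 28 were higher at 48 h (36.8%, against 22.3% of all genes with the block) and 3 lower (3.95%, against 18.8%). At 72 h 1 of 75 was higher (1.33%, against 13.4% of 17714) and 3 lower (4.00%, against 15.7%). The block gave 5 (6.67%, against 19.6%) and 7 (9.33%, against 19.3%). The higher gene was Ndufs8, an iron-sulfur subunit of complex I (log2 +0.28), and Ndufb6 was lower (log2 −0.40), as was Cox7a2l (log2 −0.36). At 96 h 5 of 75 were higher (6.67%, against 9.45% of 18356) and 3 lower (4.00%, against 13.8%), and the block gave 31 (41.3%, against 17.4%) and 4 (5.33%, against 21.1%). Among the calls without the block were Ndufs8 (log2 +0.24), Ndufa5 (+0.22), Ndufa8 (+0.21) and Cox7a2 (+0.15) as higher and Ndufb2 (−0.30) and Cox7a2l (−0.19) as lower genes. The call of Ndufb2 was lost with DESeq2 (adjusted p = 0.0534) and with TMM scaling (adjusted p = 0.0515). Leaving out replicate 1 or replicate 2 left 1 and 1 calls (0 h), 1 and 1 (48 h), 2 and 2 (72 h), or 2 and 4 (96 h). Without replicate 3 there were 6 at 72 h.

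At 120 h 4 of 76 nuclear subunits were higher in p53KO-emiRFP cells (5.26%, against 27.3% of 18901 genes tested) and 12 were lower (15.8%, against 23.7%), both below the share of all genes. The block gave 8 (10.5%, against 33.6%) and 22 (28.9%, against 28.0%). Atp5l was lower (log2 −0.52) together with 4 other subunits of complex V, Atp5b (−0.29), Atp5g1 (−0.28), Atp5c1 and Atp5a1. Cox7a2 (log2 +0.29), Ndufa5 (+0.27), Ndufb11 (+0.24) and Atp5md (+0.24) were the 4 that were higher. The gastruloid markers summed to 42720 to 45400 normalized counts in p53KO-emiRFP against 14740 to 19360 in WT-emiRFP libraries. The stress response sum was 15780 in WT-emiRFP replicate 2, against 8244 and 7818 in replicates 1 and 3. The part of these markers in the differences of the subunits at 120 h was not tested.

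At 144 h 29 of 76 nuclear subunits were lower (38.2%, against 32.2% of 19391 genes tested) and 5 were higher (6.58%, against 33.2%). The share of lower genes is thus near that of all genes, and the share of higher genes is below it. The median log2 difference was −0.13 over the nuclear subunits and +0.01 over all genes, and within the replicate numbers it was −0.14, −0.20 and −0.05. Complex IV held 12 of the lower genes among 16 tested (75.0%), with a median of −0.45 and medians of −0.49, −0.40 and −0.32 by replicate number. Complex III had 4 of 8 lower (median −0.25), complex V 6 of 17 (median −0.12) and complex I 7 of 35 (median −0.07). Other markers moved with this comparison: the 7 naive pluripotency genes given above, and 9 gastruloid markers, of which 7 were higher and which summed to 26770 to 31990 normalized counts in p53KO-emiRFP against 4464 to 5898 in WT-emiRFP libraries. Their part in the differences of the subunits was not tested.

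The complex IV genes lower at 144 h included subunits that every cell uses. Cox6a1 had 4982, 4511 and 5024 normalized counts in p53KO-emiRFP against 7511, 7136 and 6495 in WT-emiRFP cells (log2 −0.54, SE 0.081, adjusted p = 4.49e-05), with no overlap. Cox5a differed by −0.51 (adjusted p = 6.31e-05), Cox7c by −0.48, Cox8a by −0.43 and Cox5b by −0.32. Cox6c (−0.25), Cox7b (−0.20) and Cox7a2 (−0.14, adjusted p = 0.0350) had smaller differences. Cox4i1, a complex IV subunit whose symbol lies outside the rule, was lower by 0.45 (SE 0.066, adjusted p = 3.45e-05). Cox6b1 did not pass the test, at 6806, 6351 and 6471 against 6578, 6169 and 6034 (log2 +0.06, adjusted p = 0.378).

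In complex V, Atp5b had 79580, 79670 and 78390 normalized counts in p53KO-emiRFP against 106900, 107900 and 105300 in WT-emiRFP cells at 144 h (log2 −0.43, adjusted p = 1.77e-06). The WT-mCherry libraries lay between them, at 97040, 99080 and 96320 beside p53KO and 93320, 101500 and 94990 beside WT cells, above each mutant library. Atp5g1, 1 of 3 genes that encode the same c subunit of the rotor ring, had 5051, 4380 and 4813 against 7879, 7810 and 6972 (log2 −0.67, SE 0.089, adjusted p = 1.50e-05). The other two c subunit genes had log2 differences of −0.12 for Atp5g3 (adjusted p = 0.0504) and −0.19 for Atp5g2 (adjusted p = 0.121), which the block brought to 0.00783 and 0.00735.

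The other subunits of complex V that were lower at 144 h were Atp5l (log2 −0.38), Atp5j2 (−0.25), Atp5a1 (−0.23) and Atp5c1 (−0.22). In complex III the lower genes were Uqcr10 (−0.37), Uqcrb (−0.33), Uqcrq (−0.26) and Uqcrc1 (−0.23), the last of them a core subunit. In complex I they were the accessory subunits Ndufb4 (−0.47), Ndufa7 (−0.40), Ndufa6 (−0.35), Ndufs6 (−0.32), Ndufb6 (−0.28) and Ndufa8 (−0.20) and the core subunit Ndufs8 (−0.33), which had been higher at 72 and 96 h.

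The genes that were higher at 144 h belonged to complexes I and III. Ndufa5, an accessory subunit of complex I, had 1735, 1612 and 1701 normalized counts against 1315, 1149 and 1156 (log2 +0.48, adjusted p = 5.73e-05). Ndufb2 had 192.1, 176.4 and 171.7 against 113.8, 119.2 and 106.1 (log2 +0.67, adjusted p = 2.47e-04), with the uncertainty of its overlapping exons. Uqcrh (log2 +0.25), Ndufb11 (+0.23) and Ndufs3 (+0.21) made up the rest. Sdha of complex II, which is outside the rule and lacks mitochondrially encoded partners, stood at −0.04 (adjusted p = 0.436).

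**Figure D4:**
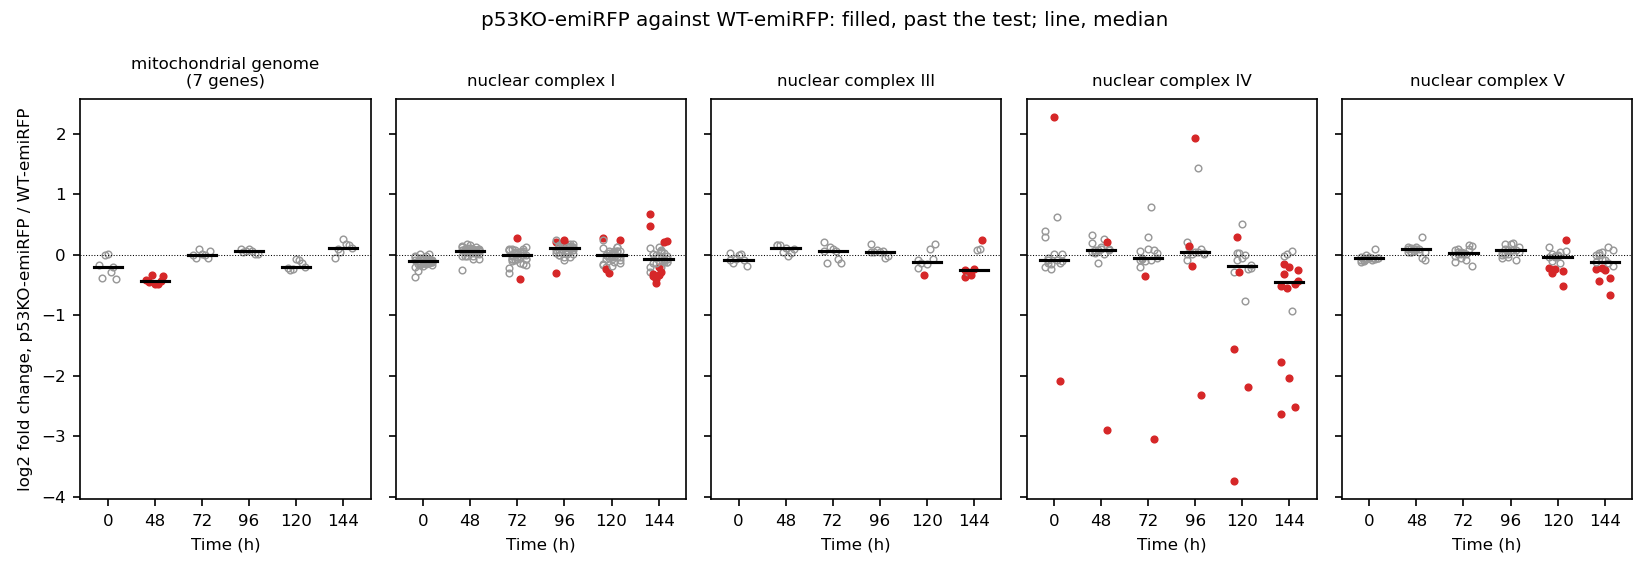
Log2 fold change of p53KO-emiRFP over WT-emiRFP cells for the 7 mitochondrial genes with reads of their own and each nuclear subunit tested of complexes I, III, IV and V by time (h). Filled points mark genes past the test and lines the median of the genes drawn. The mitochondrial median dips at 48 h and the complex IV median dips to −0.45 at 144 h, whereas that of complex I stays between −0.10 and +0.11.

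Several complex IV genes with tissue-typical isoforms carried larger differences than their common counterparts. The promoters of Cox7a1 (heart and muscle isoform) with Cox7a2 (common isoform) and of Cox6b2 (testis isoform) with Cox6b1 (common isoform) are shown because the results below turn on these pairs. Each runs from 250 bases before to 50 after the RefSeq start on GRCm38.p6, and the bases in capitals mark a match to the ETS motif CCGGAAG on either strand.
Cox7a1, chr7:30183921-30184220 (plus strand): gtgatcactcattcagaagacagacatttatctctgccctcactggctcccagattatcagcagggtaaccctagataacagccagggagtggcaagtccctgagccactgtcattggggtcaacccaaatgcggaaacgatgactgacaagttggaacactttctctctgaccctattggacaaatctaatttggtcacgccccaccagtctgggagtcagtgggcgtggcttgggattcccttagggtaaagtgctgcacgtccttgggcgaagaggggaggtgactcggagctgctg
Cox7a2, chr9:79759804-79760103 (minus strand): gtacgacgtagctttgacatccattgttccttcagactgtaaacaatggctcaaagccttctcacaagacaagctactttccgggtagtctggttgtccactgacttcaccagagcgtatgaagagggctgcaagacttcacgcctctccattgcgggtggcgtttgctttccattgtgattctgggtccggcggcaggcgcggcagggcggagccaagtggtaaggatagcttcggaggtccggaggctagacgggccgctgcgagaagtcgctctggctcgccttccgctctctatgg
Cox6b2, chr7:4753045-4753344 (minus strand): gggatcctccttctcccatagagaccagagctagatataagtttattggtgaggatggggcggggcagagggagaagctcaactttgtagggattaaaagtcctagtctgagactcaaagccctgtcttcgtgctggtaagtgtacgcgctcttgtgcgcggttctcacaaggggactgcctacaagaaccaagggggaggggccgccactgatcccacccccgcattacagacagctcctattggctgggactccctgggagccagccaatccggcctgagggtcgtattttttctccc
Cox6b1, chr7:30626065-30626364 (minus strand): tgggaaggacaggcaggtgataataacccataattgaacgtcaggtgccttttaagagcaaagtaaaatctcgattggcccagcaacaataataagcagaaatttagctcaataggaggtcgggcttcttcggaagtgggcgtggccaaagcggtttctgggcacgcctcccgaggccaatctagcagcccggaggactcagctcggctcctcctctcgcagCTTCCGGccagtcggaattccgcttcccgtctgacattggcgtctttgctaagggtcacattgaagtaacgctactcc

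Among 65 of the 78 nuclear members with a promoter in the RefSeq table (70 promoters, 13 members unmatched), 12.9% of promoters held the motif GCGCATGC of NRF1, against 2.71% of all 32851 promoters. The ETS motif CCGGAAG was in 21.4% against 8.86%, and the YY1 motif AAGATGGC in 14.3% against 2.75%. At least 1 of these 3 motifs was found for 29 of the 65 genes, searched on both strands. Of the 4 promoters printed here only that of Cox6b1 held one. The p53 half-site motif was in 5.71% of member promoters against 8.36% of all. These are matches of letters in these windows.

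Cox6b2 was lower in p53KO-emiRFP cells than in the parent clone at all 6 times, the pluripotent cultures included. At 0 h it had 337.1, 346.6 and 345.7 normalized counts against 1837, 1330 and 1213 (log2 −2.09, SE 0.165, adjusted p = 6.56e-06), and WT-mCherry cells had 2175, 1844 and 1522. At 72 h the counts were 238.3, 286.3 and 261.0 against 2271, 2253 and 1976, the largest difference (log2 −3.04, SE 0.090, adjusted p = 2.50e-12). At 144 h they were 391.0, 338.7 and 454.9 against 2332, 2434 and 2006 (log2 −2.51, SE 0.138, adjusted p = 2.90e-09). The log2 difference was −2.89 (48 h), −2.31 (96 h) or −2.18 (120 h). The mutant libraries overlapped no WT library at any of the 6 times. Between WT-mCherry and WT-emiRFP cells from cultures or WT + WT gastruloids, Cox6b2 had adjusted p of 0.174 to 0.995 over the 6 times.

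Cox7a1 and Cox6a2, isoforms typical of heart and skeletal muscle, differed at the late times. Cox7a1 had 103.8, 115.0 and 83.7 normalized counts in p53KO-emiRFP and 91.6, 83.9 and 85.4 in WT-emiRFP cells at 96 h, which overlapped. At 120 h it had 93.0, 130.5 and 79.3 against 289.4, 344.0 and 256.1 (log2 −1.55, SE 0.196, adjusted p = 1.56e-05), and at 144 h 180.0, 192.4 and 214.3 against 681.0, 747.7 and 576.4 (log2 −1.77, SE 0.169, adjusted p = 5.42e-07). In WT cells Cox7a1 had gone down from 0 to 48 h (log2 −1.01, SE 0.12) and from 72 to 96 h (log2 −0.44, SE 0.117), and then rose by 1.55 (SE 0.11) to 120 h and by 1.20 (SE 0.098) to 144 h. The 9 WT libraries stood at 67.4 to 103.0 at 96 h, 195.7 to 344.0 at 120 h and 349.3 to 846.2 at 144 h, with no overlap between these times. At 144 h Cox7a1 was also lower in WT-mCherry than in WT-emiRFP cells of the same gastruloids (log2 −0.60, adjusted p = 0.0148).

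Cox6a2 had few counts throughout. At 144 h it had 7.75, 6.01 and 9.70 normalized counts in p53KO-emiRFP and 35.5, 31.4 and 30.4 in WT-emiRFP cells (log2 −2.03, SE 0.297, adjusted p = 3.49e-05). The WT-mCherry cells beside WT cells had 8.85, 14.8 and 8.24, close to the mutant values, and differed from WT-emiRFP as well (log2 −1.57, adjusted p = 0.00131). The direction was the opposite at 0 h, with 18.7, 17.8 and 17.0 against 2.37, 0 and 8.08 (adjusted p = 0.0389), and at 96 h, with 22.3, 20.2 and 16.4 against 8.0, 3.81 and 3.09 (log2 +1.93, SE 0.434, adjusted p = 0.00483). In WT cells it rose between 0 and 48 h (adjusted p = 8.40e-15). The lowest, median and highest WT library had 0, 2.75 and 8.08 normalized counts at 0 h and 21.8, 39.3 and 55.4 at 48 h.

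Of the list of 11 heart and muscle markers, 6 were lower (54.5%, against 32.2% of genes tested) and 1 higher (9.09%, against 33.2%) in p53KO-emiRFP cells at 144 h, and their sum was 610.0 to 650.3 against 752.9 to 933.8 normalized counts. Their sums did not overlap at some earlier times either. They were 1176 to 1348 in p53KO-emiRFP against 760.4 to 1048 in WT-emiRFP at 0 h, 746.1 to 776.1 against 618.7 to 711.4 at 48 h, 910.7 to 957.7 against 667.0 to 871.5 at 96 h and 533.8 to 574.4 against 646.1 to 720.5 at 120 h, whereas they overlapped at 72 h. Of the markers tested, 1 of 10 was higher and 0 lower at 0 h, 0 of 7 passed the edgeR test at 48 h with 0 at an unadjusted p under 0.05, 1 of 8 was higher and 2 lower at 96 h, and 2 of 8 were higher and 3 lower at 120 h. The part of these markers in the values of Cox7a1 and Cox6a2 was not tested. Of the other isoforms, Cox8c had 3.45, 1.00 and 3.88 normalized counts in p53KO-emiRFP against 20.5, 20.9 and 13.04 in WT-emiRFP cells at 144 h (adjusted p = 5.11e-05), and 1.02, 0 and 1.00 against 12.3, 11.6 and 6.47 at 120 h (adjusted p = 0.0012). Cox7b2 did not pass the test at any time, and Cox8b had too few counts to be tested. Cox4i2, an isoform outside the rule, was higher at 120 h, with 52.1, 69.8 and 54.2 against 30.8, 37.8 and 31.4 normalized counts (log2 +0.82, adjusted p = 0.0145).

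**Figure D5:**
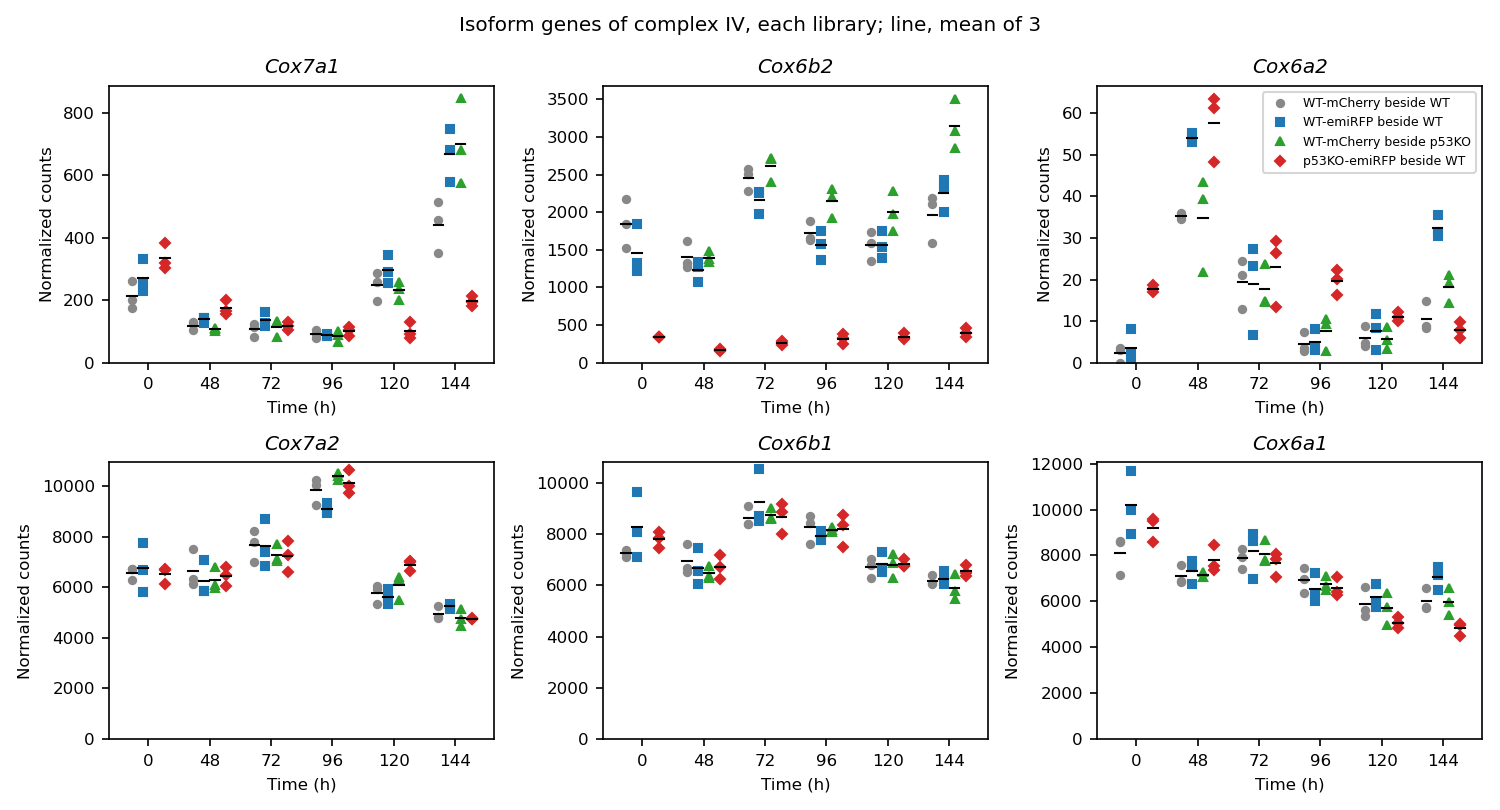
Normalized counts of Cox7a1, Cox7a2, Cox6b2, Cox6b1, Cox6a2 and Cox6a1 in each library by time (h) for the 4 populations, with lines at the mean of 3. The p53KO-emiRFP points of Cox6b2 lie below those of WT-emiRFP cells at every time, and those of Cox7a1 do so at 120 and 144 h, whereas Cox6b1 overlaps at every time.

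Whether the difference between p53KO-emiRFP and WT-emiRFP cells itself changed from 48 to 144 h was tested with an interaction term over all libraries. For the nuclear subunits 27 of 77 moved down (35.1%, against 25.4% of 21121 genes tested) and 2 moved up (2.60%, against 24.8%), with a median of −0.19. Complex IV held 11 of these 27 among 17 tested, with a median of −0.51. Atp5b moved by −0.55 (adjusted p = 7.24e-09) and Atp5g1 by −0.96 (adjusted p = 5.27e-06). Cox7a1 moved by −2.10 (adjusted p = 6.82e-10) and Cox6a2 by −2.12, and the 2 that moved up were Ndufb2 (+0.92) and Ndufa5 (+0.34). Without replicate 2, 13 nuclear members passed this test in place of 29, against 25 without replicate 1 and 29 without replicate 3.

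The mitochondrial genes had a positive median in the same test, at +0.54, and medians by replicate number of +0.42, +0.96 and +0.41. Only mt-Co2, with its few counts, passed the test (log2 +0.89, adjusted p = 0.0464), where 3 of 13 had an unadjusted p under 0.05 and the replicate block called 4, all upward (30.8%, against 26.8% of all genes upward and 27.4% downward). Leaving out replicate 1 or replicate 2 left 0, and leaving out replicate 3 left 3. The nuclear and mitochondrial medians of this interaction thus had opposite signs, while the mitochondrial one was not carried by genes that passed the test.

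The WT-mCherry cells beside p53KO-emiRFP cells were compared with the same clone beside WT-emiRFP cells, to ask whether the neighbour altered these genes. Few subunits differed before 144 h. At 48 h 0 of 76 nuclear subunits and 0 of 12 mitochondrial genes changed by edgeR (against 0% of 17662 genes tested higher and 0.0736% lower). DESeq2 also called 0, and 2 nuclear and 0 mitochondrial members had an unadjusted p under 0.05. The block called 8 nuclear members lower (10.5%, against 3.69% of all genes with the block) and 0 higher (against 1.25%). At 72 h 0 of 75 nuclear and 0 of 11 mitochondrial genes changed (against 0.231% higher and 0.327% lower), and DESeq2 called 0. The mitochondrial median was −0.35, with −0.20, −0.68 and −0.05 by replicate number, and 7 mitochondrial genes and 0 nuclear ones had an unadjusted p under 0.05. Without the filter on low counts 7 mitochondrial genes passed the test. Of the 7 naive pluripotency genes 2 were lower at 48 h (28.6%, against 0.0736% of all genes) and 2 at 72 h (28.6%, against 0.327%). Their sums were 11520 to 12540 normalized counts beside p53KO and 15260 to 15940 beside WT cells at 48 h, then 27480 to 29360 and 32050 to 34730 at 72 h. Their part in the values of the subunits was not tested.

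At 96 h 1 of 75 nuclear subunits was higher (1.33%, against 2.87%) and 0 lower (against 1.05%), and at 120 h 2 of 76 were higher (2.63%, against 3.41%) and 0 lower (against 2.52%). Cox7a2l was higher at both times, by 0.21 (SE 0.045, adjusted p = 0.0206) and 0.28 (adjusted p = 0.0190), and Ndufv3, an accessory subunit of complex I, was higher at 120 h (log2 +0.31, adjusted p = 0.0283). With the block 3 were higher (4.00%, against 11.7% of all genes) and 1 lower (1.33%, against 9.19%) at 96 h, then 5 (6.58%, against 10.2%) and 1 (1.32%, against 9.99%) at 120 h. Without replicate 1 or replicate 2 the call at 96 h was lost, and at 120 h 0, 1 and 1 calls were left without replicates 1, 2 and 3. The mitochondrial genes had 0 calls at both times by edgeR and by DESeq2, with 1 unadjusted p under 0.05 at each, and the block called 3 lower at each, of 12 and 11 tested (25.0% and 27.3%). Histone genes that were high in emiRFP cells (H2bc14, H2bc7 and H2bc21) moved with the neighbour as well, with 2 of 3 higher at each time (medians +1.52 and +1.69). Their sum in WT-mCherry libraries was 195.6 to 562.4 normalized counts beside p53KO and 85.8 to 190.8 beside WT cells at 96 h, then 383.1 to 741.3 and 154.1 to 228.4 at 120 h. Of the 7 naive pluripotency genes 3 were lower at 96 h (42.9%, against 1.05% of all genes) and 2 at 120 h (28.6%, against 2.52%), with medians of −0.30 and −0.36, and the block called 6 lower at each time. Of the 9 stress response genes 1 was higher at 96 h (median +0.40), where the block called 5. Of the 9 gastruloid markers 4 were higher and 2 lower at 120 h, and the part of these markers in the calls was not tested.

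At 144 h 5 of 76 nuclear subunits were higher beside p53KO-emiRFP cells (6.58%, against 10.1% of genes tested) and 8 were lower (10.5%, against 15.5%), shares below those of all genes. Cox6b2 had 3511, 3084 and 2850 normalized counts beside p53KO against 2103, 2192 and 1594 beside WT cells, with no overlap (log2 +0.68, SE 0.125, adjusted p = 0.00188). Cox7a1 had 846.2, 679.3 and 574.4 against 456.6, 513.3 and 349.3, again with no overlap (log2 +0.67, SE 0.159, adjusted p = 0.00840). Ndufv3 had 4330, 3478 and 3264 against 2765, 2789 and 2506 (log2 +0.46, adjusted p = 0.00410). Ndufa6 (log2 +0.26) and Cox7a2l (log2 +0.22) were the other higher genes. The largest falls were in Ndufs1, the large iron-sulfur subunit of complex I (log2 −0.26, adjusted p = 0.00353), and Atp5md (log2 −0.24, adjusted p = 0.0297), and Atp5g3, Ndufa5, Uqcrq, Ndufa4, Atp5j and Atp5h were lower by 0.16 to 0.23. The mitochondrial genes had 0 calls by edgeR and by DESeq2 and 0 with an unadjusted p under 0.05, and their replicate medians were −0.79, +0.14 and +0.18. Without replicates 1, 2 and 3 the nuclear calls numbered 6, 4 and 9.

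The same 3 histone genes summed to 211.4 to 1327 normalized counts in the WT-mCherry libraries beside p53KO at 144 h, to 55.1 to 247.8 beside WT cells and to 7811 to 11490 in the emiRFP libraries. Other markers moved with the neighbour at 144 h as well. Of the 11 heart and muscle markers 3 were higher beside p53KO (27.3%, against 10.1% of genes tested) and 1 was lower (9.09%, against 15.5%), with a median of +0.55 and medians of +0.52, +0.43 and +0.53 by replicate number. Their sums overlapped, at 879.4 to 924.5 beside p53KO and 716.7 to 951.0 normalized counts beside WT cells. Of the 9 gastruloid markers 5 were higher and 3 lower (median +1.20), with sums of 6727 to 10900 and 8518 to 10390. The part of these markers and of the histone genes in the neighbour differences was not tested. The change of the neighbour difference from 48 to 144 h passed the test in 3 of 77 nuclear members, all upward (3.90%, against 4.02% of genes tested), and in 0 downward (against 5.08%). These were Cox7a1 (log2 +0.82, adjusted p = 0.0340), Cox6b2 (+0.69, adjusted p = 0.0135) and Ndufv3 (+0.42, adjusted p = 0.0338). With the block 4 moved up (5.19%, against 6.11% of all genes) and 1 down (1.30%, against 8.40%). Without replicate 1 or replicate 2 none of them passed, and without replicate 3 there were 3. Of the mitochondrial genes 0 of 13 passed by edgeR and by DESeq2, and 1 had an unadjusted p under 0.05.

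The WT clones were also compared with each other. In WT + WT gastruloids and in cultures, the median of WT-mCherry over WT-emiRFP cells was +0.07, −0.05, +0.38, +0.05, +0.22 and +0.26 for the mitochondrial genes at 0, 48, 72, 96, 120 and 144 h. At 72 h it was +0.47, +0.74 and +0.07 by replicate number, and mt-Nd1 was higher (log2 +0.52, adjusted p = 0.0315). For the nuclear subunits the medians were −0.13, +0.06, 0, +0.08, −0.01 and −0.06. For scale, the medians of p53KO-emiRFP over WT-emiRFP cells were −0.45 for the mitochondrial genes at 48 h and −0.13 for the nuclear subunits at 144 h.

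The wider pathway gave the setting of these differences. Of 77 mitochondrial ribosomal proteins tested between p53KO-emiRFP and WT-emiRFP cells, 26 were higher at 48 h (33.8%, against 10.3% of genes tested) and 0 lower (against 11.7%), with a median of +0.13. The higher and lower members numbered 16 (20.8%, against 13.4% of genes tested) and 1 (1.30%, against 15.7%) at 72 h, 6 (7.79%, against 9.45%) and 3 (3.90%, against 13.8%) at 96 h, and 14 (18.2%, against 27.3%) and 14 (18.2%, against 23.7%) at 120 h. At 144 h they were 14 and 28, which is 18.2% higher and 36.4% lower, against 33.2% and 32.2% of genes tested at that time, so that the share of lower ones is near that of all genes. With the block there were 49 higher at 48 h (63.6%, against 22.3% of all genes), 31 at 72 h (40.3%, against 19.6%) and 22 at 96 h (28.6%, against 17.4%). Of 89 cytosolic ribosomal proteins, 41 were lower (46.1%) and 0 higher at 144 h. Of 14 assembly factors of complex I, 5 were higher (35.7%) and 4 lower (28.6%) at 144 h, and of 16 of complex IV, 4 (25.0%) and 4 (25.0%), shares near or below those of all genes. Among 9 subunits outside the rule, Cox4i1 and Cyc1 (log2 −0.33, adjusted p = 3.82e-04) were lower at 144 h (22.2%) and none higher. Of 8 regulators of mitochondrial biogenesis 1 was higher (12.5%) and 3 were lower (37.5%), and of 22 genes for mitochondrial DNA upkeep and RNA synthesis 6 were higher (27.3%) and 5 lower (22.7%) at 144 h. Of the 9 stress response genes 1 was higher (11.1%) and 1 lower (11.1%) at that time.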

How the data were processed

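Bulk RNA was sequenced from 69 libraries of 3 mES cell clones and of cells sorted from their mosaic gastruloids, with stranded libraries made after poly(A) enrichment and paired reads of 150 bases. The authors trimmed the reads with Trim Galore 0.6.7, aligned them with STAR 2.7.11b to GRCm38.p6 and deposited raw counts per gene of uniquely mapped reads. Which strand column of STAR's output was taken is not given in the sources used here. All sample columns were used.

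The members and gene lists were chosen with earlier results of these data known. Median-of-ratios size factors were set over the 69 libraries, and low counts were removed per group by edgeR's filterByExpr. Tests were run in R 4.3.3 with edgeR 4.0.16 (with limma 3.58.1), by the quasi-likelihood test and Benjamini-Hochberg adjustment over all genes tested at a threshold of 0.05. Populations of 1 time point shared a fit of 12 libraries (9 at 0 h), and time intervals and interactions were fitted over all 69. The 3 WT populations were averaged over intervals. Same-numbered pairs used log2 of normalized counts plus 0.5. Lengths, places and shared 100-base windows came from Gencode M21 on GRCm38, not the annotation the authors counted with, and promoters from RefSeq on GRCm38.p6.

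The genes named by rule were all mitochondrial genes, the isoform genes of complexes IV and V, for each comparison up to 2 nuclear members with the largest rise and 2 with the largest fall past the threshold, reaching a mean log2 CPM of 1 and 1 direction in all 3 same-numbered pairs, and up to 3 in each direction for each interaction. Other members were named after their values were seen. The study states that replicates came from separate experiments, so same-numbered libraries were taken as paired in the medians by replicate number and in the fit with the replicate block. The main tests compared group means without this pairing. Over 14106 genes that averaged 50 counts or more, the mean correlation of their deviations from group means was 0.144 to 0.570 over 33 pairs of groups, and 91 of 99 same-numbered pairs were above 0.1 (lowest 0.0359). At a single time point the p-values measure the spread between experiments on single clones. The interval tests counted WT populations of the same experiment as independent libraries, so their p-values do not measure the spread between experiments alone and can be too small. Alternatives were TMM, size factors from nuclear genes, no filter, the replicate block, only the groups compared, DESeq2 1.42.0 and each replicate left out. Simulated data were used for the main fit of p53KO-emiRFP against WT-emiRFP cells at single time points, and not for the other fits.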

Additional observations from a re-analysis of the deposited data

Results flagged for a closer look

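The difference between p53KO-emiRFP and WT-emiRFP cells changed from 48 to 144 h, by an interaction term in edgeR, in the following members (log2 change of the difference, adjusted p over all genes tested, 3 replicates per group). It went up by 0.92 for Ndufb2 (adjusted p = 7.02e-07), by 0.89 for mt-Co2 (adjusted p = 0.0464) and by 0.34 for Ndufa5 (adjusted p = 0.0386). It went down for Cox7a1 (−2.10, adjusted p = 6.82e-10), Cox6a2 (−2.12, adjusted p = 3.52e-04), Cox8c (−2.81, adjusted p = 2.20e-04), Atp5b (−0.55, adjusted p = 7.24e-09) and Atp5g1 (−0.96, adjusted p = 5.27e-06). The value of Cox8c depends on the prior count, since the mutant libraries held 3.88 or fewer normalized counts of it at 144 h, and that of mt-Co2 rests on a gene with an identical nuclear copy.

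The difference of WT-mCherry cells beside p53KO-emiRFP from those beside WT-emiRFP cells changed over the same span, by the same test, for Cox7a1 (+0.82, adjusted p = 0.0340), Cox6b2 (+0.69, adjusted p = 0.0135) and Ndufv3 (+0.42, adjusted p = 0.0338). For Cox7a1 and Cox6a2, the p53KO-emiRFP cells had no difference from WT-emiRFP cells that passed the test at 48 h, with adjusted p of 0.0708 and 0.801, and the change of the difference was tested as given. Single outlying libraries were not tested here.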

How the results depend on the processing

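Of 138 calls of single genes in single comparisons, none changed direction in the alternatives that gave it a value, and none was lost with the replicate block. With only the groups compared the changes of a difference between times had no value, and Cox8c at 120 h had none there or without replicate 2. Lost calls numbered 1 with DESeq2, 5 without the low-count filter, 8 with TMM, 10 with only the groups compared and 50, 49 and 25 without replicates 1, 2 and 3, where fewer samples were fitted. Size factors from nuclear genes moved no count and no median beyond its limit, and the median of all genes shifted by at most 0.0378 with TMM.

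Counts of called members moved by over 1.5 times as follows, and the cause was not tested. For p53KO-emiRFP against WT-emiRFP cells, the mitochondrial calls without the filter were 3 at 0 h, 4 at 120 h and 3 at 144 h in place of 0, and with the replicate block 1 at 0 h and 1 at 144 h. Their range over the replicates left out was 0 to 2 at 0 h and 5 to 8 at 48 h (9 in all libraries). The nuclear calls without the filter were 5 at 48 h, 7 at 72 h and 16 at 96 h in place of 2, 4 and 8, and with the block 31, 12 and 35, with 30 in place of 16 at 120 h. DESeq2 gave 5 at 48 h and a fit of only the groups compared 1 at 0 h in place of 2. Over the replicates left out they were 1 to 2 at 0 h, 1 to 3 at 48 h, 2 to 6 at 72 h and 2 to 10 at 96 h.

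For WT-mCherry cells by neighbour, the mitochondrial calls without the filter were 7, 4, 6 and 2 at 72, 96, 120 and 144 h in place of 0, and with the block 3 at 96 h and 3 at 120 h. The nuclear calls with the block were 8 at 48 h, 4 at 96 h and 6 at 120 h in place of 0, 1 and 2. Without the filter there were 2 at 96 h, and with only the groups compared 0 at 96 and 120 h. Over the replicates left out they were 0 to 1 at 96 h, 0 to 1 at 120 h and 4 to 9 at 144 h (13 in all libraries).

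For WT intervals, the mitochondrial calls without the filter were 10 from 0 to 48 h, 9 from 72 to 96 h, 7 from 96 to 120 h and 7 from 120 to 144 h, in place of 6, 3, 1 and 0. With the block they were 7, 5 and 3 over the last 3 intervals. With only the groups compared they were 7 from 72 to 96 h and 5 from 96 to 120 h, where TMM gave 2. Over the replicates left out they were 2 to 6, 3 to 8, 0 to 5, 0 to 1 and 0 to 10 over the 5 intervals in order. For the change of the p53KO difference, 9 mitochondrial members were called without the filter and 4 with the block in place of 1, and 0 to 3 over the replicates left out, which gave 13 to 29 nuclear ones. For the change of the neighbour difference, 1 mitochondrial member was called without the filter and 1 with the block, and 5 nuclear ones with the block, with 0 to 3 over the replicates left out. The replicate block moved no other of the 36 counts of called members tried by over 1.5 times, and counts of other gene lists and of p53KO-emiRFP cells between times were not among them.

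Of the medians, that of the nuclear members in p53KO-emiRFP at 120 h was −0.0755 with TMM in place of −0.0377, and that between the WT clones at 48 h 0.0451 in place of 0.0558. Over the replicates left out the latter was 0.0458 to 0.0634. The mitochondrial median was −0.207 to −0.0854 for p53KO-emiRFP at 0 h, 0.00814 to 0.228 between the WT clones at 0 h and −5.03e-04 to 0.0467 by neighbour at 48 h. The values of the 6 mitochondrial genes with few counts and of the isoforms Cox6a2, Cox8c and Cox7b2 rest on few reads and are uncertain.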
